A study of Homo sapiens with 2 samples.

Results

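miR-374a and miR-374b are paralogous microRNAs, each cut from its own hairpin into a 5p and a 3p arm. Their 4 mature arms (hsa-miR-374a-5p, hsa-miR-374a-3p, hsa-miR-374b-5p and hsa-miR-374b-3p) were taken by name from the 859 mature miRNAs counted in A549 cells, a line derived from a human lung adenocarcinoma. All 4 were listed. Cells grown in DMEM with 10% serum were kept for 24 h in normoxia (20% oxygen) or in hypoxia (1.2% oxygen), and 1 small RNA library was sequenced per condition. The pair was selected on the measured ratio of miR-374b-5p in hypoxia over normoxia in these same libraries, so its values are a description and carry no test. With 1 library per condition, no difference has a replicate check, and the conditions cannot be told apart from the cultures or from the library preparation. In RNA from a whole culture, a level also cannot separate fewer cells that make a miRNA from less of it per cell.

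A miRNA guides Argonaute to messenger RNAs through its seed, bases 2 to 8 counted from its 5′-end, and paralogs with the same seed can pair with the same sites. Of the arms of a hairpin, one is usually kept as the guide and the other is mostly lost. Both miR-374 genes lie in introns of FTX, a long noncoding RNA gene of the X-inactivation center, which also hosts miR-545 and miR-421.

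The deposited counting windows of the 4 arms are shown 5′ to 3′, with the seed in capitals, because the 5p arms share their seed while the 3p arms do not.
miR-374a-5p: atTATAATAcaacctgataagtgt
miR-374b-5p: gaTATAATAcaacctgctaagtgt
miR-374a-3p: acTTATCAGattgtattgtaattg
miR-374b-3p: acTTAGCAGgttgtattatcattg

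The window of miR-374a-5p was chrX:73507159-73507182 and that of miR-374a-3p chrX:73507129-73507152 in hg19. The windows of miR-374b were chrX:73438421-73438444 for the 5p arm and chrX:73438391-73438414 for the 3p arm, with 68684 bases between the genes' nearest windows. In the GENCODE annotation of GRCh38, the MIR374A hairpin (chromosome X, 74287286 to 74287357) and the MIR374B hairpin (74218547 to 74218618) were on the minus strand, as was FTX. Neither overlapped an FTX exon, and they lay in an intron of 13 and 7 of the 18 annotated FTX transcripts. A sequence entry of the same name was found in RefSeq (GRCh38.p14) for 3 of the 4 arms. For these 3, the window was the mature sequence with 1 more base at each end, and the same trimming was used for all arms.

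The 5p arms differed by 2 substitutions over 22 bases and the 3p arms by 4, marked here in capitals in the mature sequences.
miR-374a-5p: TtataatacaacctgAtaagtg
miR-374b-5p: AtataatacaacctgCtaagtg
miR-374a-3p: cttaTcagAttgtattGtAatt
miR-374b-3p: cttaGcagGttgtattAtCatt

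With the miR-374a base first and positions counted from the 5′-end, the 5p substitutions were T1A and A16C, both outside the seed. The 3p substitutions were T5G, A9G, G17A and A19C, of which T5G lies in the seed. Shared seeds were sought among the 828 listed mature miRNAs with a full-length window, one as long as its coordinates. No other of these had the seed TATAATA, and none shared the seed of either 3p arm. Because the 5p arms are so similar, reads with a sequencing error or a trimmed end could be split between them in the counting, and their separate values are uncertain to that extent.

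The mature miRNAs held 4514818 counts in the normoxia library and 8600160 in the hypoxia library, and levels are given as CPM, the counts scaled to a mature total of 1000000. miR-21-5p alone took 72.2% and 68.4% of them. Intervals are exact 95% intervals and cover counting error only, since amplified reads without molecular identifiers are not independent molecules. miR-210, the best known hypoxia-induced miRNA, was at 954 CPM in normoxia and 2657 CPM in hypoxia, and its log2 ratio of 1.48 was the highest among expressed miRNAs. All 5 epithelial markers were listed and summed to 1165 and 1360 CPM. Of 15 markers of blood, endothelial, muscle, neuronal, liver and mesenchymal cells, 12 were listed and summed to 415 and 404 CPM. Endothelial miR-126 arms made up 222 and 221 CPM of this, and the 3 mesenchymal markers 172 and 156 CPM. The 1 listed muscle marker had no count in normoxia and 2.09 CPM in hypoxia. The part of other cell types in the miR-374 levels was not tested.

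miR-374b-5p was the most abundant of the 4 arms and the only one whose level was above that of normoxia in the hypoxia library. It had 12376 counts in normoxia, or 2741 CPM (interval 2693 to 2790), and 52398 counts in hypoxia, or 6093 CPM (6041 to 6145). It moved from rank 29 to rank 13 among mature miRNAs. The level in hypoxia was 2.22 times that in normoxia, a log2 ratio of 1.15 (counting interval 1.12 to 1.18).

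miR-374a-5p, with the same seed, had 3515 counts in normoxia and 6525 in hypoxia. These are 779 CPM (753 to 805) and 759 CPM (740 to 777), at ranks 69 and 67, and the intervals overlap. Its log2 ratio was -0.04 (-0.10 to 0.02), so that no difference beyond counting error was seen for this arm when scaled by the mature total.

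The 3p arms were far less abundant. miR-374a-3p had 223 and 281 counts, or 49.4 CPM (43.1 to 56.3) in normoxia and 32.7 CPM (29.0 to 36.7) in hypoxia. Its log2 ratio was -0.59 (-0.85 to -0.34), and its intervals do not overlap. miR-374b-3p had 44 and 75 counts, or 9.75 CPM (7.08 to 13.1) and 8.72 CPM (6.86 to 10.9). Its log2 ratio was -0.16 (-0.72 to 0.41), an interval that spans both directions at this depth.

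**Figure D1:**
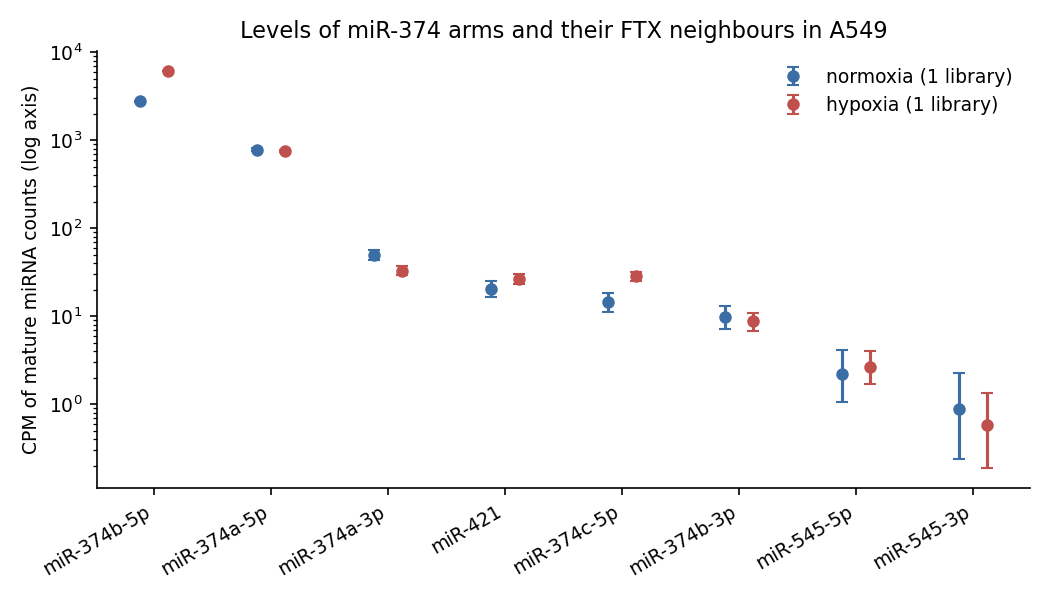
Levels of the miR-374 arms and of the other listed miRNAs of FTX in A549, in CPM of mature miRNA counts on a log axis, with points for the 1 library of each condition and bars for exact 95% counting intervals. miR-374b-5p lies at 2741 and 6093 CPM (normoxia and hypoxia) and miR-374a-5p at 779 and 759 CPM.

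The order of the 4 levels was the same in both libraries, miR-374b-5p, miR-374a-5p, miR-374a-3p and miR-374b-3p, and no neighbors in this order had overlapping counting intervals. The paralog with the most abundant 5p arm therefore had the least abundant 3p arm. Of the counts on the 4 arms, miR-374b-5p took 76.6% in normoxia and 88.4% in hypoxia. miR-374a-5p took 21.8% and 11.0%. The arms that carry the seed TATAATA, summed, were at 3520 CPM in normoxia and 6851 CPM in hypoxia, a log2 ratio of 0.96 (0.94 to 0.99). Reads split between the paralogs leave this sum as it is, but a read counted for both would enter it more than once. The identical mature sequences of miR-365a-3p (9093 and 27425 counts) and miR-365b-3p (9114 and 27455 counts) had almost equal counts in both libraries, and how shared reads were counted was not stated.

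The ratios were then set beside those of all expressed miRNAs, defined by a mean log2 CPM above 3. This filter was passed by 339 of the 859, including all 4 arms. The rule of size for a call in either direction was an absolute log2 ratio of 0.9 or more. By this rule 1 of the 4 arms, miR-374b-5p, was higher, against a background of 3.54% of the 339 miRNAs. None of the 4 was lower, against a background of 3.24%, and both directions together made up 6.78%. This background of 12 higher and 11 lower miRNAs moved with the scaling, to 8 and 15 by TMM (the trimmed mean of log ratios) and by DESeq2 size factors, 7 and 12 by the totals of the whole table, and 5 and 18 by totals without the 10 most abundant miRNAs. miR-374b-5p was the arm known to be high when the members were chosen, so nothing is read from this count.

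The log2 ratio of miR-374b-5p was the fourth highest of the 339, with miR-210, miR-23b-5p (1.40) and miR-654-3p (1.30) above it and miR-221-3p (1.14) next below. Of these, miR-23b-5p and miR-654-3p had only 96 and 54 counts in normoxia. The 4 arms otherwise fell in the lower part of the distribution, with 36.9% of the miRNAs below miR-374a-5p, 27.4% below miR-374b-3p and 8.26% below miR-374a-3p. The median log2 ratio of the 339 was 0.08, with quartiles of -0.22 and 0.38. Relative to this median, the log2 ratio of miR-374b-5p was 1.07, that of miR-374a-5p -0.12, that of miR-374b-3p -0.23 and that of miR-374a-3p -0.67.

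**Figure D2:**
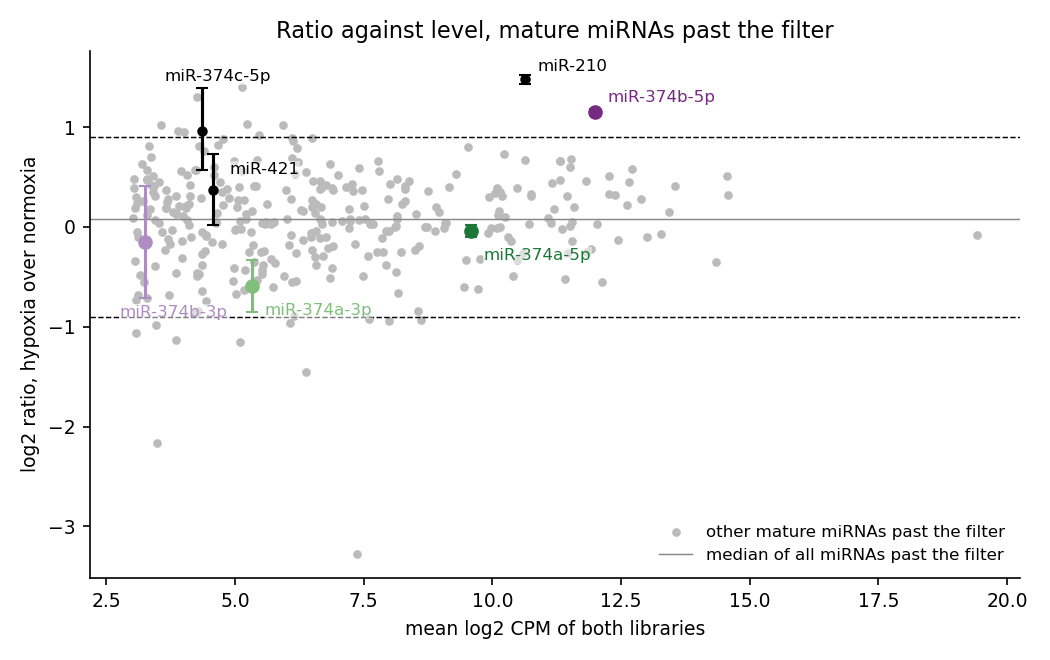
Log2 ratio of hypoxia over normoxia against mean log2 CPM for the 339 mature miRNAs past the filter, 1 library per condition, with exact 95% counting intervals for the named miRNAs and dashed lines at the rule of size of 0.9. miR-374b-5p (1.15) lies above the upper line and the other 3 miR-374 arms lie between the lines.

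Scaling by TMM shifted the median over the 339 miRNAs by -0.11, and totals without the most abundant miRNAs shifted it by -0.19. miR-374b-5p stayed past the rule of size under all 5 scalings tried, with a lowest log2 ratio of 0.96. The log2 ratio of miR-374a-5p was -0.15 by TMM and -0.23 without the most abundant miRNAs.

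**Figure D3:**
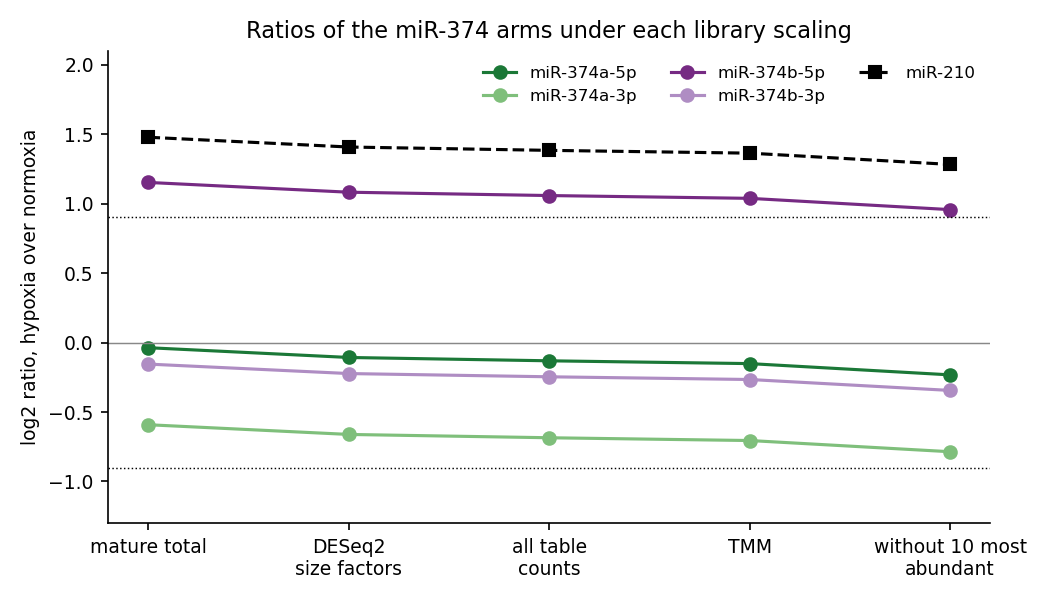
Log2 ratios of hypoxia over normoxia of the 4 miR-374 arms and of miR-210 under 5 library scalings, 1 library per condition, with dotted lines at the rule of size of 0.9. miR-374b-5p runs from 1.15 with the mature total to 0.96 without the 10 most abundant miRNAs, and the other 3 arms stay below 0.

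Ratios of counts within a library do not depend on the scaling. The ratio of miR-374b-5p to miR-374a-5p was 3.52 (3.39 to 3.66) in normoxia and 8.03 (7.83 to 8.24) in hypoxia. The conditional odds ratio between the libraries was 2.28 (2.18 to 2.39), or 1.19 (1.12 to 1.26) on the log2 scale. The 3p arms stood in the opposite order, with miR-374b-3p at 0.197 counts per count of miR-374a-3p (0.139 to 0.274) in normoxia and 0.267 (0.204 to 0.345) in hypoxia. Their shift was 1.35-fold (0.880 to 2.09), an interval that includes both no shift and a shift nearly as large as that of the 5p arms.

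The 5p difference was set beside other mature miRNAs of near-identical sequence. Past the filter and with full-length windows there were 50 other pairs at an edit distance (single-base changes, insertions or losses) of 2 or less, of which 2 pairs were identical. Their median absolute difference of log2 ratio was 0.30 and the largest was 1.15, between miR-148a-3p and miR-148b-3p. The difference between miR-374a-5p and miR-374b-5p was 1.19, and 0 of the 50 reached it. The pair was selected on the ratio of miR-374b-5p, so nothing is read from this place. The largest of the others, 1.15, lay inside the counting interval of the shift of the 5p arms (1.12 to 1.26). It rested on 41 and 61 counts of miR-148a-3p. Several of the 50 pairs share a member.

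**Figure D4:**
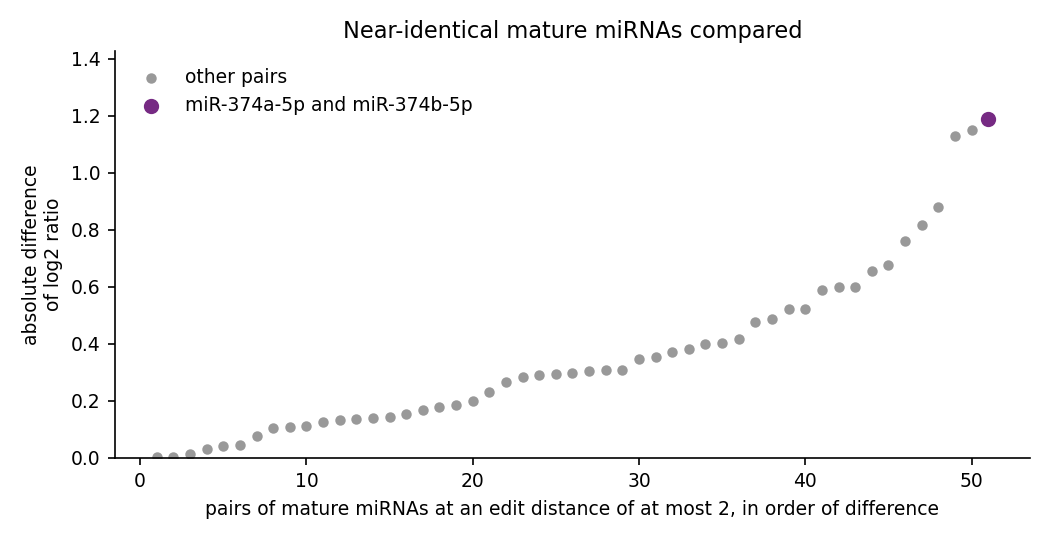
Absolute difference of the log2 ratio of hypoxia over normoxia between the members of each pair of mature miRNAs at an edit distance of at most 2, sorted, with 1 library per condition and 1 point per pair. The pair of miR-374a-5p and miR-374b-5p, selected on the ratio of miR-374b-5p, has a difference of 1.19, and the 50 other pairs reach up to 1.15.

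The 5p arm was the dominant strand of both hairpins. For miR-374a, the 5p to 3p ratio was 15.8 (13.8 to 18.1) in normoxia and 23.2 (20.6 to 26.3) in hypoxia, a shift of 1.47-fold (1.22 to 1.77). For miR-374b it was 281 (209 to 387) in normoxia and 699 (557 to 888) in hypoxia, a shift of 2.48-fold (1.67 to 3.65). Both hairpins thus had more of their counts on the 5p arm in hypoxia, and the strand bias of miR-374b was more than an order of magnitude above that of miR-374a.

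Among the 73 hairpins with both arms past the filter, the 5p arm was ahead in both libraries in 46. In normoxia, 2 of the other 72 hairpins, those of miR-21 and miR-181a, had a higher 5p to 3p ratio than miR-374b, and in hypoxia 0 did. The counting interval of miR-374b took in the ratio of miR-181a in normoxia (301) and that of miR-21 in hypoxia (560). Its order against these is therefore not resolved. For miR-374a, 21 of the other 72 were higher in normoxia and 17 in hypoxia. The filter leaves out hairpins with a rare 3p arm, and so many of the highest ratios. Over all 199 hairpins with both arms listed, with 0.5 added to each count, 11 of the other 198 had a higher ratio than miR-374b in normoxia and 5 in hypoxia, and for miR-374a 48 and 43 did. A shift toward the 5p arm of at least 0.9 on the log2 scale was seen in 6 of the 73 hairpins, or 8.22%, and a shift toward the 3p arm in 8.22% as well. With 0.5 added to each count, the shift of miR-374b was 1.32, above that of each of the other 72 hairpins past the filter, and 2 of these (miR-221 and miR-744) had as large a shift toward the 3p arm. Without the added 0.5, the counting interval of the miR-374b shift was 0.74 to 1.87, resting on 44 and 75 counts of miR-374b-3p. This interval took in the next largest shift toward the 5p arm, 1.09. The shift of miR-374a was 0.56, and 12 of the other 72 had at least as large a shift toward the 5p arm. Over all 199 hairpins, many with few counts on an arm, 18 of the other 198 had at least as large a shift toward the 5p arm as miR-374b and 49 as miR-374a. These shifts come from the same libraries as the ratio for which miR-374b-5p was chosen.

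**Figure D5:**
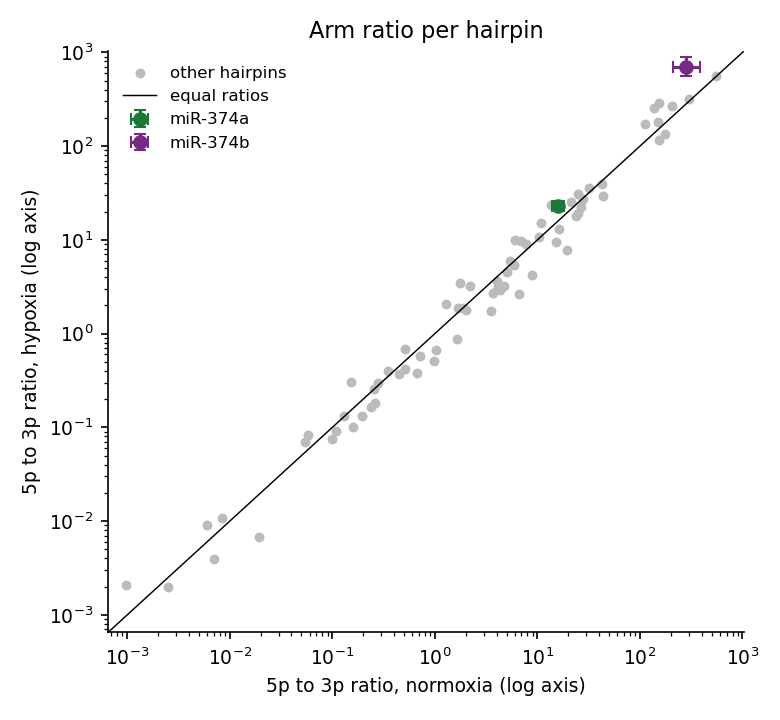
Ratio of 5p to 3p counts in hypoxia against normoxia, both on log axes, for the 73 hairpins with both arms past the filter, 1 library per condition; 0.5 was added to each count of the other hairpins, and bars on miR-374a and miR-374b are exact 95% counting intervals. miR-374b lies above the line of equal ratios, at 281 in normoxia and 699 in hypoxia, and miR-374a lies at 15.8 and 23.2.

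Of the 5 other mature miRNAs fixed as FTX neighbors, 4 were listed and miR-374c-3p was not. miR-421, whose window ends 140 bases from that of miR-374b-3p, had 93 and 229 counts, or 20.6 CPM (16.6 to 25.2) and 26.6 CPM (23.3 to 30.3). Its log2 ratio was 0.37 (0.02 to 0.73) with the mature total. It was lower under each other scaling, at 0.25 by TMM and 0.17 without the 10 most abundant miRNAs. The interval applies to the mature total only, and no direction beyond counting error is read for miR-421. The ratio of miR-374b-5p to miR-421 was 133 (109 to 165) in normoxia and 229 (201 to 262) in hypoxia, with miR-374b-5p being the miRNA that the pair was selected on.

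miR-545, whose 5p window lies 107 bases from that of miR-374a-3p, was near the limit of detection. miR-545-5p had 10 and 23 counts, or 2.21 CPM (1.06 to 4.07) and 2.67 CPM (1.70 to 4.01). miR-545-3p had 4 and 5 counts. Both were below the expression filter, and no direction can be read at this depth. miR-374a-5p had 352 counts per count of miR-545-5p in normoxia and 284 in hypoxia, with overlapping intervals.

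miR-374c is annotated on the plus strand, opposite miR-374b, over almost the same bases. Its 5p arm shares a run of 20 bases with miR-374b-5p, shown in capitals in the counting windows, since this run limits how far the counts of these miRNAs can be told apart.
miR-374b-5p: gatATAATACAACCTGCTAAGTGt
miR-374c-5p: gATAATACAACCTGCTAAGTGcta

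The run covers bases 3 to 22 of miR-374b-5p and bases 1 to 20 of miR-374c-5p. miR-374c-5p had 65 and 243 counts, or 14.4 CPM (11.1 to 18.4) and 28.3 CPM (24.8 to 32.0). Its log2 ratio was 0.96 (0.57 to 1.39), past the rule of size with the mature total but below 0.9 under the other 4 scalings, at 0.85 by TMM. The ratio of miR-374b-5p to miR-374c-5p was 190 (149 to 247) in normoxia and 216 (190 to 246) in hypoxia, a shift of 1.13-fold (0.847 to 1.50) that includes no shift. How many reads of miR-374c-5p came from miR-374b-5p was not tested. Summing both miRNAs left the log2 ratio of miR-374b-5p at 1.15. miR-374c-5p adds too few counts to move this sum, so it says nothing on how shared reads were assigned.

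Past the filter, 40 other miRNAs of chromosome X had a median log2 ratio of 0.11, against 0.08 for all 339, with 23 above 0 and 17 below. The 4 arms were rich in A and T, with a GC content of 22.7% to 31.8%. The 28 other miRNAs past the filter with a full-length window and a GC content of 35% or less had a median log2 ratio of 0.03.

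The mature miRNA closest to miR-374b-5p in log2 CPM over the 2 libraries was miR-221-3p, at 2759 and 6085 CPM, a Euclidean distance of 0.0094. The next were miR-30d-5p at 0.55 and let-7f-5p at 0.59. The closest to miR-374a-5p were miR-15b-3p at 0.25, miR-16-2-3p at 0.31 and miR-29b-3p at 0.45. For miR-374a-3p they were miR-188-5p at 0.028, miR-542-3p at 0.033 and miR-186-5p at 0.13, and for miR-374b-3p miR-766-3p at 0.20, miR-877-5p at 0.20 and miR-548v at 0.23. With 2 libraries such a distance compares only a level and a ratio.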

How the data were processed

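The authors deposited unnormalized raw counts of 5475 small RNAs in 2 SOLiD libraries, prepared by adapter ligation and PCR. The methods describe processing of SOLiD reads with the small RNA pipeline of LifeScope version 2.5.1 at default parameters and annotation by miRBase version 18, without naming this experiment, and the submitters' processing notes give hg19. The treatment of reads matching several miRNAs was not stated. Features with fewer than 3 counts in all were not listed.

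The members and lists were chosen with earlier results of these data known. CPM and log2 ratios used the mature miRNA totals, with a prior count of 2 (edgeR version 4.0.16, R version 4.3.3). Intervals for shares, ratios and shifts are Clopper-Pearson, conditional binomial and conditional odds ratio intervals at 95% (scipy version 1.17.1, Python version 3.11.15). They cover counting error only. No p-value was computed. A count of 0 would allow up to 3 counts, or 0.664 CPM in normoxia and 0.349 CPM in hypoxia. The calculation was tested on simulated data.

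Named miRNAs are the arms, the FTX neighbors, miRNAs with the same seed, miR-210 and the 3 closest to each arm in log2 CPM. Others were named after their values were seen, being those ranked beside miR-374b-5p, those ahead of it in arm ratio or shift, the next pair in difference (miR-148a-3p and miR-148b-3p), the identical miR-365 pair and the miR-126 arms of the marker lists. Alternatives were TMM, DESeq2 (version 1.42.0) size factors, other totals, thinning of the deeper library, a prior count of 0.5, and other filters and thresholds. Summing near-identical 5p arms was chosen after seeing the data.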

Additional observations from a re-analysis of the deposited data

Results flagged for a closer look

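The annotated hairpins of the locus are features of their own in the table, apart from the mature miRNAs, and had a few counts, which no comparison used. The MIR374B hairpin had 4 counts in normoxia and 10 in hypoxia. The MIR374A hairpin had 8 counts in hypoxia and the MIR421 hairpin 9. There is no control library, and each of these values exceeds 3 counts, the limit set by a count of 0. In normoxia these last hairpins had 2 counts and 1 count, below that limit. The source of these counts was not tested.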

How the results depend on the processing

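No paired analysis was possible because there is 1 library per condition, which also means that no library could be left out. By the totals of the table, TMM, DESeq2 size factors and totals without the 10 most abundant miRNAs, in this order, the log2 ratio of miR-374b-5p was 1.06, 1.04, 1.08 and 0.96, that of miR-374a-5p -0.13, -0.15, -0.11 and -0.23, and that of miR-210 1.38, 1.36, 1.41 and 1.28. Summing the 5p arms of both paralogs gave 0.96 in place of either value. Thinning of the hypoxia library took miR-374b-3p from -0.16 to 0.06, the only change of sign among the arms other than that of miR-374a-5p in the sum, and miR-374a-3p stayed below 0 under each alternative. With the 5p arms counted apart, miR-374b-5p was higher and 0 arms were lower under each scaling, prior count, filter and threshold and with thinning. At a mean CPM of 20 or more miR-374b-3p was not considered. The strand and paralog ratios stayed within their counting intervals when 2 was added to each count and when the deeper library was thinned, with the shift of miR-374b between 1.09 and 1.34.

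Of all mature miRNAs, 12 were higher and 11 lower by the rule of size. These were 8 and 15 by TMM and by DESeq2 size factors. Without the 10 most abundant in the totals they were 5 and 18, with the table totals 7 and 12, with a threshold of 1 there were 8 and 6, at a mean CPM of 20 or more 9 and 7, and without a filter 113 and 64, as 859 miRNAs were then considered. Levels changed by construction with the denominator. Per 1000000 counts of the whole table, miR-374a-5p was at 545.02 and 498 (normoxia and hypoxia), miR-374a-3p at 34.6 and 21.4, miR-374b-5p at 1919 and 3995, and miR-374b-3p at 6.82 and 5.72. Per 1000000 mature counts without miR-21-5p they were at 2801 and 2398, 177.7 and 103.3, 9864 and 19256, and 35.1 and 27.6. Apart from these changes of denominator and of the number of miRNAs considered, the cause was not tested. Depth limits miR-374b-3p and miR-545.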
